A study of Canis lupus familiaris with 17 samples.

Results

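The ligands of the tumor necrosis factor (TNF) superfamily described here were TNF, LTB, FASLG, CD40LG, TNFSF8, TNFSF10, TNFSF13B and TNFSF14. They were taken by gene symbol, and these 8 of the 20257 genes listed for each dog each matched 1 entry and had unique molecular identifiers (UMIs, each standing for 1 captured RNA molecule) in all 17 dogs. The study profiled circulating leukocytes of dogs with droplet-based single-cell RNA sequencing of transcript ends. Peripheral blood mononuclear cells (PBMC) were prepared from whole blood on a density gradient with lysis of red cells, from 7 client-owned dogs that were clinically healthy and from 10 dogs with osteosarcoma, a malignant bone tumor. The osteosarcoma dogs carried a primary tumor and had received no treatment, and both groups were labelled genotype Wt. By the ages the study lists, the osteosarcoma dogs spanned a wider range than the healthy dogs, held both the youngest and the oldest animal, and had the higher median. Each library came from a different dog.

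Superfamily ligands are made as membrane proteins, act as trimers and bind receptors of the TNF receptor superfamily on neighboring cells, and several are also shed in soluble form. Receptors with a death domain, such as FAS, can start apoptosis through caspases, whereas most others recruit TRAF adaptors and activate NF-kB. In blood, T cells are known for CD40LG, the help signal to B cells, and for FASLG, a killing signal of cytotoxic cells, while monocytes are known as a source of TNF and of TNFSF13B (BAFF), a survival factor for B cells. In the RefSeq gene table of the assembly UU_Cfam_GSD_1.0, LTA, TNF and LTB were direct neighbors, TNFSF8 lay beside TNFSF15, TNFSF14 lay beside CD70 and TNFSF9, and TNFSF4 and TNFSF18 were among the genes next to FASLG.

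The libraries held 7740230 to 56510134 UMIs and 1332 to 7748 barcodes, and osteosarcoma dog 3 was the smallest. After limits on cells and removal of 3938 predicted doublets, 80407 cells remained, with median UMIs per cell of 3567 to 6648.5 across dogs, and any pair of libraries shared at most 22 barcodes. Clusters were named X-like from marker lists that the study drew largely from its healthy dogs, so the names are not independent of these data. The ligands were taken out of clustering and naming. The study's marker table itself had LTB and TNFSF8 for naive CD4 T cells and CD40LG for effector memory CD4 T cells. It had FASLG for memory CD8 T cells and NK cells. The levels of these ligands in the matching classes are therefore no independent finding. CD3E, part of the T cell receptor complex, ran from 709 to 1096 CPM (UMIs of a gene scaled to 1000000 UMIs of the same dog and class) in T-like and NK-like cells and from 2.93 to 26.8 CPM in myeloid cells, LYZ was at least 13752 CPM in monocyte-like cells of every dog, and CD3E in NK-like cells was at most 4.03 CPM. LYZ and CD3E were in the marker lists, and the name NK-like required low CD3E, so these values follow partly from the naming. Healthy dog 7 contributed 1749 of the 5260 neutrophil-like cells. A set of CD8A-positive T clusters lay closest to the naive CD8 list but did not reach the limits for that name and is called the unnamed CD8A clusters. The smaller of these 2 clusters had the double negative T markers TMEM132D, KANK1 and KIAA0825 among its leading genes, and the larger had SULT2B1, a marker of the CD8+ gamma delta T list.

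Each ligand had its own distribution over the leukocyte classes. Levels below are means of the CPM of UMIs summed per dog and class, with the SD over dogs, for the 12 classes that had 25 or more cells in 10 or more dogs, and neighbors in an order are said to lie within their spread where their means differed by less than the larger SD.

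**Figure D1:**
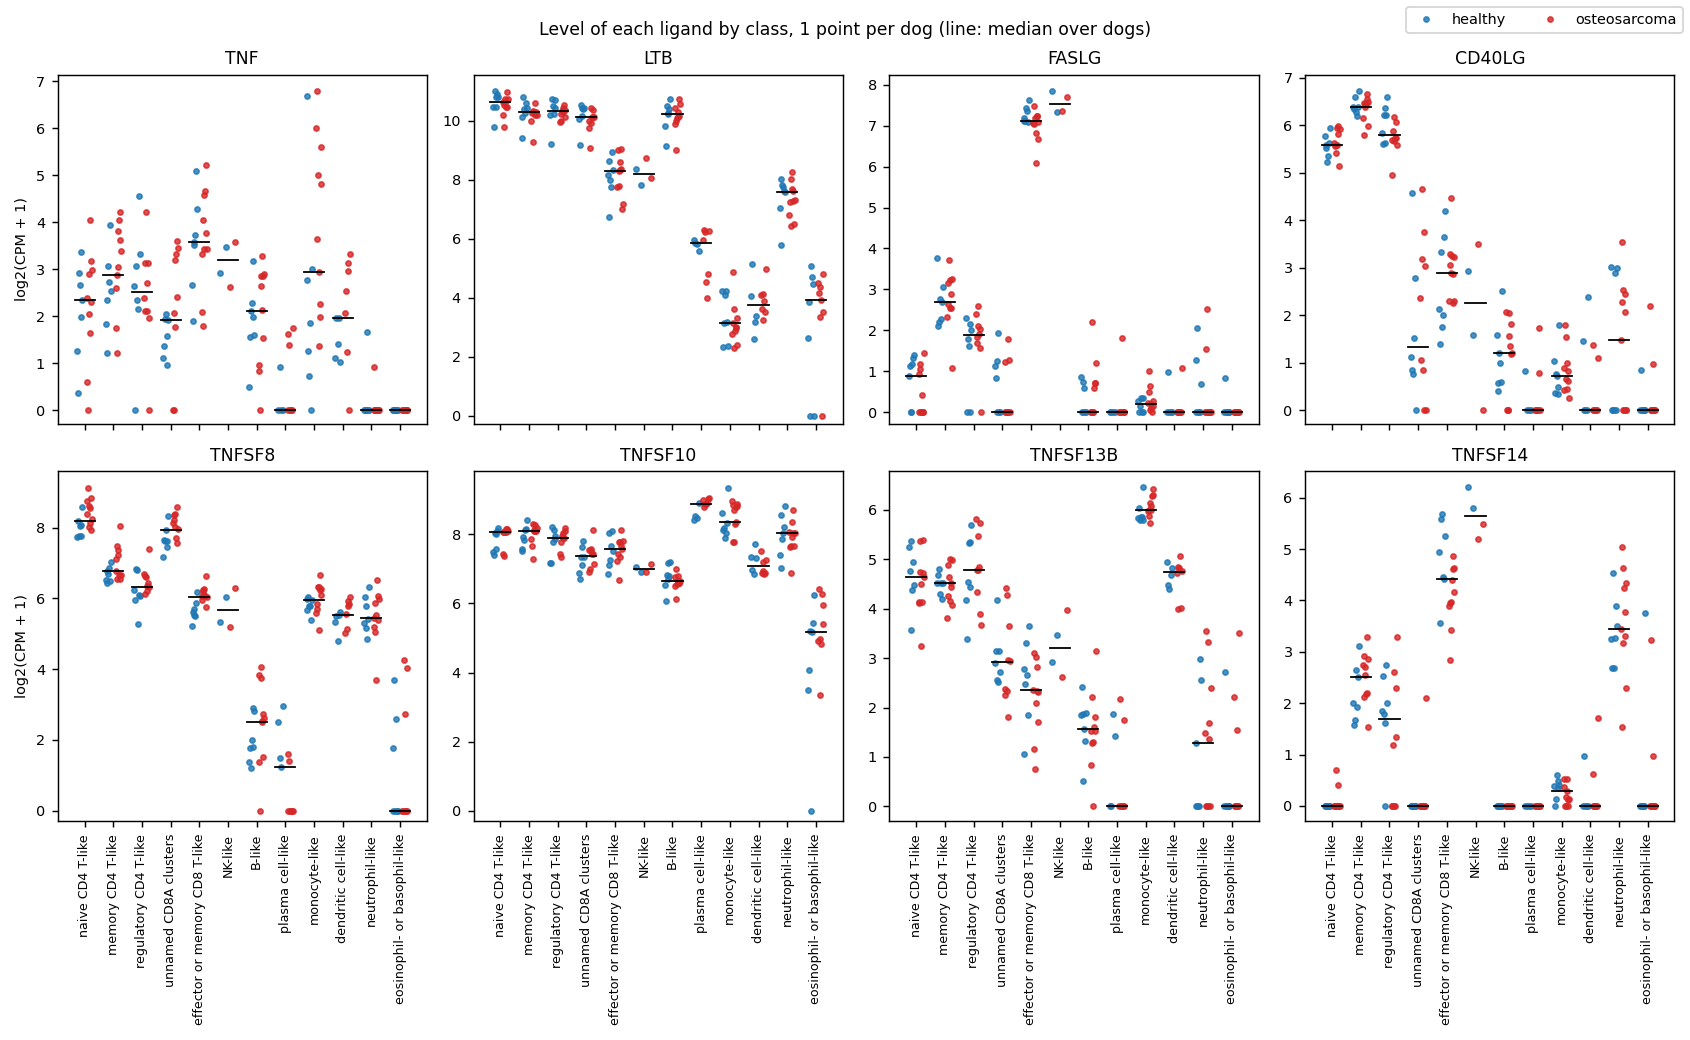
Level of each ligand as log2(CPM + 1) in the leukocyte classes, with 1 point per dog with at least 25 cells of the class, blue for healthy and red for osteosarcoma, and a line at the median. FASLG stood far above all other classes in effector or memory CD8 T-like and NK-like cells, LTB was high in T-like and B-like cells, and TNF in monocyte-like cells ran from 0 to 110.4 CPM.

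TNF, the prototype inflammatory cytokine, had its highest mean in monocyte-like cells (25.04 ± 35.5 CPM, SD, n = 17 dogs), where single dogs ran from 0 to 110.4 CPM around a median of 6.63. Effector or memory CD8 T-like cells followed with 14.0 ± 10.0 CPM and a higher median (10.9 CPM), and memory CD4 T-like cells with 7.61 ± 5.11 CPM. Every pair of neighbors in the order of TNF lay within its spread. Neutrophil-like cells held 0.179 ± 0.552 CPM, and no TNF UMI was seen in eosinophil- or basophil-like cells. The latter had a median of 1482 UMIs per cell, so a low level could go unseen there.

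LTB, the membrane subunit that pairs with lymphotoxin alpha, was a lymphoid transcript with 1556 ± 347 CPM in naive CD4 T-like cells, 1267 ± 270.2 in regulatory CD4 T-like cells, 1234 ± 286 in memory CD4 T-like cells and 1185 ± 337 in B-like cells. These classes lay within their spread of each other in order. A step beyond the spread led from the unnamed CD8A clusters (1115 ± 278 CPM) to effector or memory CD8 T-like cells (304 ± 129 CPM). Neutrophil-like cells held 175 ± 68.2 CPM of LTB, against 9.76 ± 6.61 CPM in monocyte-like cells and 14.4 ± 10.3 CPM in eosinophil- or basophil-like cells. Median depth was 1719.5 UMIs in neutrophil-like and 1482 UMIs in eosinophil- or basophil-like cells, and the part of depth in these levels was not tested.

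FASLG was concentrated in cytotoxic cells. Effector or memory CD8 T-like cells held 140.5 ± 30.0 CPM (n = 17), and the 4 dogs with enough NK-like cells held 161 to 231 CPM in them. The next class, memory CD4 T-like cells, held 6.19 ± 3.03 CPM, and each of the other 10 classes averaged at most 2.51 CPM. In B-like cells the 17 dogs together gave 12 FASLG UMIs, against 8591 in T-like cells.

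CD40LG, which binds CD40 on B cells and antigen-presenting cells, belonged to the CD4 T-like classes. Memory CD4 T-like cells held 83.0 ± 13.1 CPM, beyond the spread of regulatory CD4 T-like cells at 59.7 ± 16.3 CPM, and naive CD4 T-like cells held 49.1 ± 8.60 CPM. Effector or memory CD8 T-like cells stood beyond the spread below them at 7.46 ± 5.27 CPM, and B-like cells held 1.48 ± 1.32 CPM.

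TNFSF8 (CD30 ligand) was highest in naive CD4 T-like cells, at 323 ± 98.4 CPM, followed within the spread by the unnamed CD8A clusters at 249.8 ± 68.4 CPM. Memory CD4 T-like cells held 124 ± 45.3 CPM, and the classes from there to dendritic cell-like cells (45.7 ± 11.6 CPM) lay within their spread of each neighbor. Monocyte-like cells carried 61.8 ± 16.3 CPM, close to effector or memory CD8 T-like cells at 62.1 ± 15.2 CPM. B-like cells, at 5.22 ± 4.55 CPM, were beyond the spread below dendritic cell-like cells.

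TNFSF10 (TRAIL), which binds death receptors, had UMIs in all 12 classes. Plasma cell-like cells held 448 ± 66.2 CPM (n = 11), monocyte-like cells 366 ± 118 CPM and neutrophil-like cells 259 ± 93.0 CPM. Neighbors lay within their spread from plasma cell-like down to dendritic cell-like cells (143 ± 30.9 CPM), while B-like cells (103 ± 21.1 CPM) and eosinophil- or basophil-like cells (38.3 ± 25.8 CPM) each stood beyond the spread below the class before them.

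TNFSF13B was highest in monocyte-like cells, at 64.8 ± 10.7 CPM, and every dog lay between 52.0 and 86.4 CPM. Regulatory CD4 T-like cells were next with 29.7 ± 15.04 CPM, beyond the spread, followed within the spread by naive CD4 T-like cells (24.7 ± 10.1), dendritic cell-like cells (24.3 ± 5.44) and memory CD4 T-like cells (21.9 ± 5.13 CPM). B-like cells, which carry the receptors of this ligand, held 2.33 ± 1.77 CPM.

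TNFSF14 (LIGHT), a ligand of LTBR and of TNFRSF14, was a low transcript with 22.9 ± 12.5 CPM in effector or memory CD8 T-like cells and 12.5 ± 8.07 CPM in neutrophil-like cells, which lay within the spread of each other. NK-like cells of 4 dogs held 35.9 to 72.6 CPM. Memory CD4 T-like cells held 4.56 ± 2.01 CPM and naive CD4 T-like cells 0.0564 ± 0.167 CPM, while B-like, plasma cell-like and double negative T-like cells had no TNFSF14 UMI. Plasma cell-like and double negative T-like cells were few (645 and 783), so a low level could go unseen there.

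The receptors were ordered in the same 12 classes. Death receptors FAS and TNFRSF1A had their highest class means in neutrophil-like cells, with 325 ± 74.9 and 356 ± 55.1 CPM. The BAFF receptor TNFRSF13C and CD40 had theirs in B-like cells (596 ± 146 and 69.1 ± 14.5 CPM), whereas TNFRSF17 (BCMA) and TNFRSF13B (TACI) had theirs in plasma cell-like cells (300.5 ± 60.2 and 165 ± 25.1 CPM). The study's marker table also had TNFRSF13C for B cells and TNFRSF13B for plasma cells. Regulatory CD4 T-like cells were first for the costimulatory receptors TNFRSF4, TNFRSF18 and CD27 (56.3 ± 25.6, 56.5 ± 24.0 and 33.9 ± 10.43 CPM), and dendritic cell-like cells for TNFRSF11A (RANK, 69.1 ± 15.7 CPM). Other receptors were first by less than the spread to the next class, namely LTBR in neutrophil-like cells, TNFRSF1B and TNFRSF8 in monocyte-like cells, and TNFRSF25 (57.5 ± 24.7 CPM), TNFRSF14 (17.3 ± 14.9 CPM) and TNFRSF6B (8.72 ± 7.90 CPM) in effector or memory CD8 T-like cells. TNFRSF11B and TNFRSF9 were close to 0 even in their first class (1.78 ± 3.43 and 0.114 ± 0.187 CPM). CD27 also lay within the spread of its next class. Among other ligands, TNFSF13 (APRIL) was highest in monocyte-like cells (195 ± 46.1 CPM) and TNFSF9 in neutrophil-like cells (159.6 ± 67.9 CPM), while CD70 was first in plasma cell-like cells (29.9 ± 13.4 CPM) and LTA in B-like cells (9.54 ± 4.45 CPM), the last within the spread of its next class.

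Genes outside these lists whose class means followed each ligand most closely were ranked by Pearson correlation of mean log2(CPM + 1) over the 12 classes, among 7655 genes. The points of such a correlation share dogs and libraries, and r is a description. FASLG went with KLRK1 (0.981), GPR55 (0.977) and KLRD1 (0.974), of which KLRK1 and KLRD1 are receptors of cytotoxic lymphocytes that were also in the marker lists. CD40LG went with TSHZ2 (0.953), CCDC3 (0.922) and MYBL1 (0.901), the first pair being helper T markers of those lists. The closest gene was TJAP1 for TNF (0.963, then PRKAB2 and C6H7orf50), LY6E for LTB (0.964, then PCIF1 and SRSF10), DUSP16 for TNFSF8 (0.903, then KLHL5 and NFIA), MTHFD2 for TNFSF10 (0.943, then SDF4 and TDG) and HGSNAT for TNFSF13B (0.920, then SHTN1 and ZNF865). TNFSF14 went with a gene without a symbol (ENSCAFG00000001846, 0.875), CDC42EP3 (0.870) and IL18R1 (0.852), the last also in the marker lists.

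The classes were then compared within dogs on summed UMIs. A ligand is called higher or lower where edgeR's quasi-likelihood test gave a Benjamini-Hochberg adjusted p below 0.01 over all genes tested and the log2 fold change passed 0.58 in size. Classes differ in many genes by how they were made, so the share of all genes called is given with each count.

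**Figure D2:**
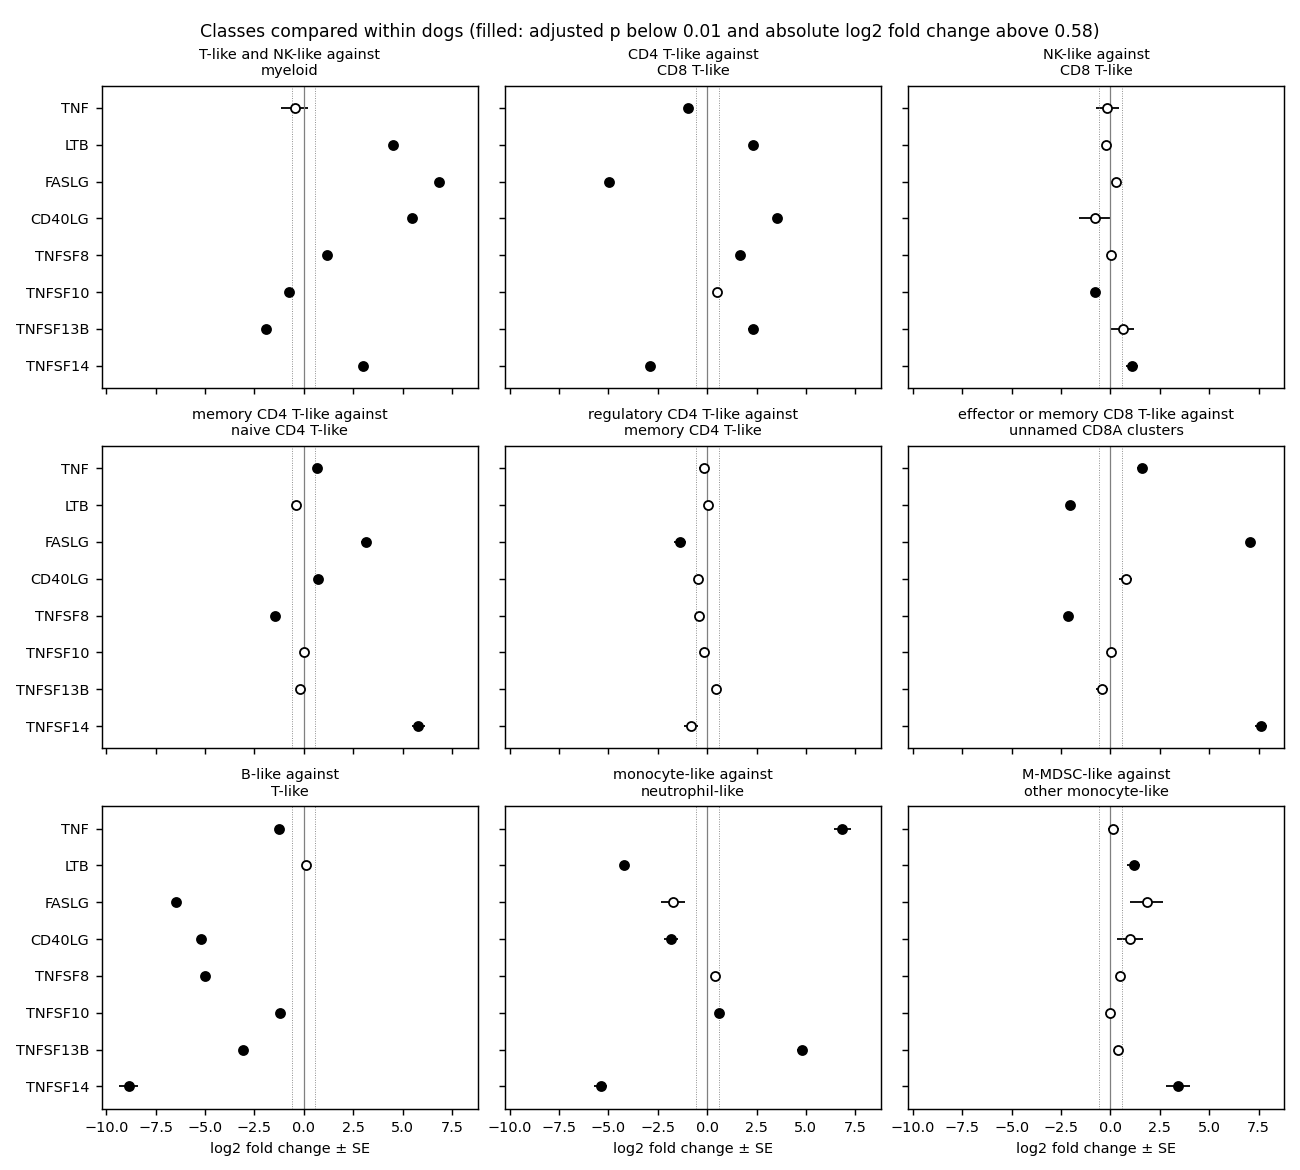
Log2 fold change ± SE of each ligand between classes of the same dogs (x axis), 1 panel per comparison and 1 line per ligand, with filled points for calls. FASLG and TNFSF14 lay at the far right in effector or memory CD8 T-like cells against the unnamed CD8A clusters (7.05 for FASLG), and 7 of 8 ligands lay left of 0 and were called in B-like against T-like cells.

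T-like and NK-like cells together were higher than myeloid cells in 5 ligands and lower in 2, where 50.8% of all 16046 genes were called, 25.5% higher and 25.3% lower. LTB had a median of 1039 CPM (574 to 1529) in T-like and NK-like cells and of 41.4 CPM (6.87 to 134) in myeloid cells, a log2 fold change of 4.51 ± 0.22 (SE, adjusted p = 2.75e-14 by edgeR), without overlap of the ranges. FASLG (6.84 ± 0.19), CD40LG (5.50 ± 0.22), TNFSF14 (2.99 ± 0.17) and TNFSF8 (1.15 ± 0.13) were also higher in the lymphoid side, each in 17 of 17 dogs. TNFSF13B was lower there in 17 of 17 dogs, at 10.1 to 27.5 CPM against 40.4 to 74.1 CPM (log2 fold change -1.91 ± 0.11), and TNFSF10 in 16 of 17 (-0.74 ± 0.10). TNF was not called (-0.47 ± 0.67, adjusted p = 0.540) and was higher in the lymphoid side in 9 dogs and in the myeloid side in 8. Its log2 fold change had the other sign (0.62) in the healthy dogs alone.

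Between CD4 T-like and effector or memory CD8 T-like cells, 7 of 8 ligands were called, 4 higher and 3 lower in CD4 T-like cells. Of all 14870 genes, 20.9% were called, 9.46% as lower. The CD4 T-like side joined naive, memory and regulatory cells and the CD8 T-like side had no naive class, so lineage and naive state are mixed here. In the unnamed CD8A clusters TNFSF8 averaged 249.8 CPM and LTB 1115 CPM, against 124 and 1234 CPM in memory CD4 T-like cells. FASLG ran from 0.588 to 9.47 CPM in CD4 T-like cells and from 66.7 to 197 CPM in CD8 T-like cells, with no overlap, and its log2 fold change was -4.98 ± 0.17 (adjusted p = 2.26e-17, edgeR). TNFSF14 was lower in CD4 T-like cells by the same test (-2.88 ± 0.20, at 1.06 to 5.83 against 6.15 to 50.7 CPM), and TNF was lower in 17 of 17 dogs (-0.98 ± 0.11) with overlapping ranges of 0.804 to 15.3 and 2.46 to 36.4 CPM. CD40LG (3.52 ± 0.17), LTB (2.35 ± 0.13), TNFSF13B (2.31 ± 0.22) and TNFSF8 (1.68 ± 0.09) were higher in CD4 T-like cells in 17 of 17 dogs. TNFSF10 stayed under the fold limit (0.52 ± 0.06, higher in 16 of 17 dogs). The TNF call was lost when cells were gated by markers in place of clusters (-0.51, adjusted p = 0.0125).

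Memory CD4 T-like cells were higher than naive CD4 T-like cells in 4 ligands and lower in 1, where 14.9% of 14319 genes were called, 9.6% higher and 5.3% lower. TNFSF14 was nearly restricted to the memory side, with 374 UMIs against 2, a ratio of CPM of 111 with a counting interval of 30.6 to 923 (95%). FASLG was higher by 3.13 ± 0.26 on the log2 scale, with a median of 5.47 CPM (1.09 to 12.5) against 0.832 CPM (0 to 1.72), CD40LG by 0.71 ± 0.04 in 17 of 17 dogs, and TNF by 0.68 ± 0.15 in 16 of 17. TNFSF8 was lower in all 17 dogs, with a median of 108 CPM (85.7 to 263) in memory and of 290.3 CPM (214 to 561) in naive CD4 T-like cells, a log2 fold change of -1.45 ± 0.04 (adjusted p = 5.98e-25, edgeR). LTB was lower in 17 of 17 dogs too, but by less than the fold limit (-0.40 ± 0.03). The TNF difference was not called in the healthy dogs alone (0.40, adjusted p = 0.173).

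Regulatory and memory CD4 T-like cells differed in 1 ligand, where 6.06% of 13745 genes were called, 1.51% higher and 4.55% lower. The regulatory class was 1 cluster of 1583 cells. A CD4-positive cluster of 2013 cells also lay closest to the regulatory list but stayed unnamed and was in neither class. FASLG was lower in regulatory CD4 T-like cells, at 0 to 5.06 CPM with a median of 2.67 against 1.09 to 12.5 CPM with a median of 5.62 (log2 fold change -1.37 ± 0.31, adjusted p = 0.000255 by edgeR, lower in 13 of 16 dogs), on 19 UMIs in the regulatory side. That call was lost in the healthy dogs alone (adjusted p = 0.0252), and clustering without correction across dogs gave 3 called ligands. CD40LG was lower in 15 of 16 dogs and TNFSF8 in 14 of 16, both under the fold limit (-0.45 ± 0.08 and -0.39 ± 0.08).

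Effector or memory CD8 T-like cells were higher than the unnamed CD8A clusters in 3 ligands and lower in 2, where 23.4% of 13368 genes were called, 13.7% higher and 9.75% lower. FASLG ran from 66.7 to 197 CPM against 0 to 2.82 CPM, with no overlap in 16 dogs (log2 fold change 7.05 ± 0.16, adjusted p = 2.28e-27, edgeR). TNFSF14 had 1096 UMIs against 1, a ratio of CPM of 452 with a counting interval of 81.0 to 17887 (95%), and TNF was higher by 1.58 ± 0.23 in 15 of 16 dogs. LTB and TNFSF8 went the other way in 16 of 16 dogs, without overlap of the ranges. LTB was 106 to 522 CPM in effector or memory cells and 537 to 1482 CPM in the unnamed CD8A clusters (-2.06 ± 0.12), and TNFSF8 was 36.4 to 99.0 against 145 to 385 CPM (-2.14 ± 0.06).

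Only healthy dogs 3 and 5 and osteosarcoma dogs 2 and 6 had 25 or more NK-like cells. In these 4 dogs TNFSF14 was higher in NK-like than in CD8 T-like cells (35.9 to 72.6 against 14.4 to 47.2 CPM, log2 fold change 1.08 ± 0.29, adjusted p = 0.00585 by edgeR) and TNFSF10 was lower (118 to 139.5 against 172 to 262 CPM, -0.77 ± 0.16), where 3.83% of 10872 genes were called, 1.87% higher and 1.96% lower. FASLG was not called (0.28 ± 0.15, higher in 2 of 4 dogs), and its ranges of 161 to 231 and 112 to 176 CPM overlapped. Leaving out healthy dog 5, osteosarcoma dog 2 or osteosarcoma dog 6 in turn ended the TNFSF14 call (adjusted p = 0.176, 0.0138 and 0.0323), and with 10 cells as the minimum neither ligand was called.

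B-like cells were lower than T-like cells in 7 of 8 ligands and higher in none, where 30.4% of 15534 genes were called, 14.5% higher and 16.0% lower. FASLG (-6.45 ± 0.21), CD40LG (-5.21 ± 0.17), TNFSF8 (-5.03 ± 0.17) and TNFSF13B (-3.07 ± 0.16) were lower in 17 of 17 dogs and their ranges did not overlap. TNFSF14 had 0 UMIs in B-like cells of all dogs against 1729 in T-like cells, which made it at least 70.6-fold lower with 3 UMIs over all dogs as the floor. TNFSF10 (-1.20 ± 0.06) was lower in 17 of 17 dogs and TNF (-1.25 ± 0.15) in 16 of 17. LTB was the exception, at a median of 1206 CPM (511 to 1719) in B-like and 1049 CPM (579 to 1547) in T-like cells, with a log2 fold change of 0.09 ± 0.07 (adjusted p = 0.292, edgeR). With cells gated by markers in place of clusters, TNFSF10 was under the fold limit (-0.576) and 6 ligands were called.

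Monocyte-like and neutrophil-like cells differed in 6 ligands, 3 higher and 3 lower in monocyte-like cells, where 51.8% of 14331 genes were called, 33.1% higher and 18.6% lower. TNF had 3713 UMIs in monocyte-like cells and 2 in neutrophil-like cells, a ratio of CPM of 109 with a counting interval of 30.0 to 897 (95%). That interval covers counting error over the summed dogs only. TNF was higher in monocyte-like cells in 16 of 17 dogs. Where TNF was low there, 0 UMIs in few and shallow neutrophil-like cells does not resolve a difference. Osteosarcoma dog 6 had 61 such cells and 1.57 CPM of TNF in monocyte-like cells. TNFSF13B was 52.0 to 86.4 against 0 to 10.7 CPM without overlap (log2 fold change 4.80 ± 0.23, adjusted p = 1.2e-17, edgeR). LTB ran the other way in 17 of 17 dogs, at 3.90 to 28.2 against 54.3 to 307 CPM (-4.23 ± 0.20), as did TNFSF14 (-5.39 ± 0.35), at 0 to 0.526 against 1.92 to 32.0 CPM, and CD40LG was called lower on 41 UMIs in neutrophil-like cells (-1.82 ± 0.35, lower in 9 of 17 dogs). Of 8 T cell markers, 7 were also higher in neutrophil-like cells over the summed dogs, among them CD3E at 14.7 against 4.85 CPM beside CD40LG at 4.31 against 0.706 CPM, while CD2 was lower there (4.73 against 17.4 CPM). The sum of these markers had a median of 35.01 CPM (21.3 to 140.1) in neutrophil-like and of 37.9 CPM (14.4 to 76.1) in monocyte-like cells and was higher in neutrophil-like cells in 11 of 17 dogs, no marker was at 0 over the summed dogs, and the part of T cell RNA in the CD40LG call was not tested. TNFSF10 was just past the fold limit (0.58 ± 0.11) and was not called in the healthy dogs alone (0.43, adjusted p = 0.0211). The median log2 fold change over all genes in this comparison was 0.33 by edgeR and -0.033 by DESeq2, where that of TNFSF10 was 0.64.

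The question of whether the ligands changed with disease was addressed by comparing osteosarcoma with healthy dogs class by class. No ligand was called in any of the 8 comparisons, and the share of all genes called was 0.0% in 7 of them and 0.0136% (1 of 7364 genes) in NK-like cells. At an unadjusted p under 0.05 edgeR gave 927 of 16266 genes in all cells, 545 of 14379 in CD4 T-like, 552 of 12920 in CD8 T-like, 299 of 7364 in NK-like, 627 of 12586 in B-like, 857 of 14129 in monocyte-like, 405 of 9996 in neutrophil-like and 403 of 8963 in M-MDSC-like cells, and DESeq2 called no ligand either. In bulk sums over all cells, more cells of a type and more RNA per cell cannot be told apart. The same holds for CD4 T-like cells, which join naive, memory and regulatory cells that differ in TNFSF8. Naive cells were 147 of 1248 CD4 T-like cells in osteosarcoma dog 10 and 666 of 1258 in healthy dog 5.

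**Figure D3:**
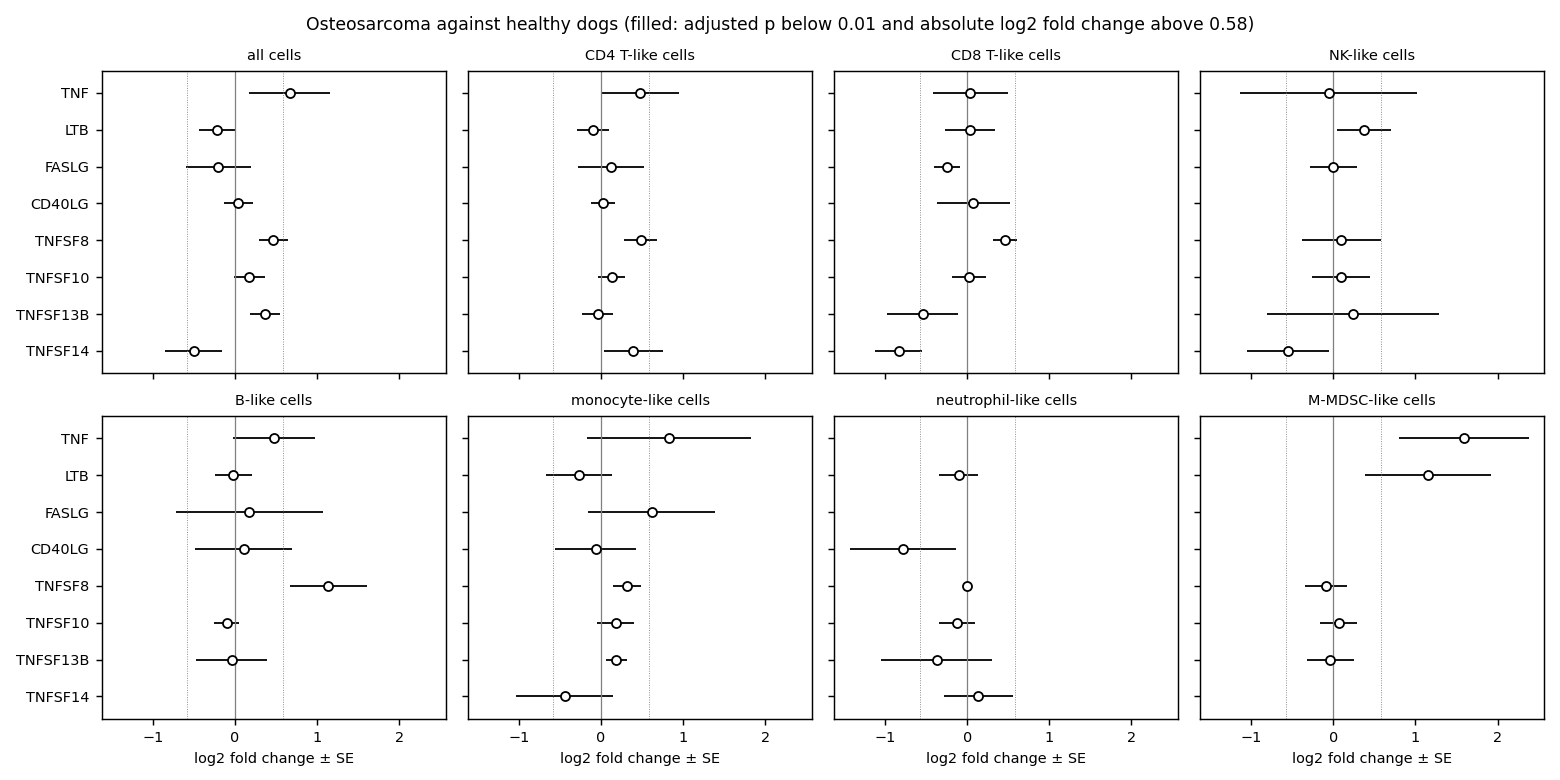
Log2 fold change ± SE of each ligand in osteosarcoma against healthy dogs (x axis), 1 panel per class, with filled points for calls and dotted lines at the fold limit of 0.58. No point is filled, a ligand without a point had too few UMIs in that class to be tested, and TNF in M-MDSC-like cells lies farthest to the right at 1.59.

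TNFSF8 had the smallest unadjusted p of the ligands. In CD8 T-like cells its lowest, median and highest values were 36.4, 48.3 and 72.0 CPM in healthy and 53.1, 66.8 and 99.0 CPM in osteosarcoma dogs. The groups overlapped, with 5 healthy dogs below all osteosarcoma dogs and 4 osteosarcoma dogs above all healthy ones. The log2 fold change was 0.46 ± 0.15 (unadjusted p = 0.0053, adjusted p = 1.00, edgeR, 7 against 10 dogs). It was 0.48 ± 0.21 in CD4 T-like cells (123, 151 and 195 CPM against 119, 208 and 358 CPM), 0.31 ± 0.17 in monocyte-like cells and 0.47 ± 0.17 in all cells, none called. In B-like cells it was 1.14 ± 0.47, at a median of 2.51 against 5.02 CPM, and 0.49 with doublets kept.

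TNFSF14 in CD8 T-like cells went toward lower values in osteosarcoma dogs, with 10.9, 29.6 and 50.7 CPM in healthy and 6.15, 15.9 and 28.1 CPM in osteosarcoma dogs as lowest, median and highest. In 4 healthy dogs it was above all osteosarcoma dogs and in 2 osteosarcoma dogs below all healthy ones, and the log2 fold change was -0.83 ± 0.29 (unadjusted p = 0.0086, adjusted p = 1.00, edgeR). In NK-like cells TNFSF14 was 54.4 and 72.6 CPM in 2 healthy and 35.9 and 44.1 CPM in 2 osteosarcoma dogs and was not called (-0.55 ± 0.50, adjusted p = 0.999). The values did not overlap, but with so few dogs neither did those of 31.2% of all genes tested there.

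TNFSF13B in all cells had a median of 28.8 CPM (21.0 to 34.2) in healthy and of 34.1 CPM (20.4 to 50.8) in osteosarcoma dogs, with 5 osteosarcoma dogs above all healthy ones (0.36 ± 0.18, adjusted p = 0.864, edgeR). In monocyte-like cells, its main source, the medians were 56.6 and 64.8 CPM (0.19 ± 0.13). LTB in CD4 T-like cells was 766 to 1902 CPM in healthy and 723 to 1707 CPM in osteosarcoma dogs (-0.10 ± 0.20), CD40LG there was 54.4 to 92.3 and 47.6 to 84.2 CPM (0.02 ± 0.15), and TNFSF10 in monocyte-like cells was 235 to 649.7 and 217 to 495 CPM (0.18 ± 0.23). FASLG in CD8 T-like cells had a median of 145 CPM in healthy and 134 CPM in osteosarcoma dogs, with 5 osteosarcoma dogs below all healthy ones (-0.25 ± 0.16). These SEs leave room for differences of either sign.

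TNF in monocyte-like cells differed more between dogs of a group than between the groups. Healthy dogs had a lowest value of 0, a median of 2.62 and a highest of 102 CPM, the last in healthy dog 1, and the other healthy dogs did not pass 7.06 CPM. Osteosarcoma dogs had 1.57, 19.3 and 110.4 CPM, and 3 healthy dogs were below all of them. The log2 fold change was 0.83 ± 1.00 (adjusted p = 0.908, edgeR), 3.55 ± 0.96 without healthy dog 1 (adjusted p = 0.404), 2.05 ± 0.80 with the replicate number as a block in dogs 1 to 7 and 0.14 ± 0.96 with age as a covariate, none called.

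M-MDSC are monocytic myeloid-derived suppressor cells, a monocyte-like population that accumulates in cancer. The M-MDSC-like cells were taken by a gate on UMIs per cell (S100A12 at least 5, IL18 at least 2, CD4 at least 1, DLA-DRA at least 1 and CD3E 0), and those genes are its definition and no result. The study reports M-MDSC as negative for MHC class II protein and lower in DLA-DRA, an MHC class II gene, than other monocytes. The gate's need for DLA-DRA thus differs from that description. The gate held 687 cells, of which 552 lay in monocyte-like clusters, 131 in neutrophil-like clusters and 4 elsewhere, and 11 dogs had 25 or more of them. Their median depth was 6010 UMIs per cell, against 11293 in the other monocyte-like cells and 1983 in the gated cells of neutrophil-like clusters. A monocyte-like cluster of 3045 cells lay closest to the M-MDSC marker list, and most of it was outside the gate. The other monocyte-like cells are therefore not free of cells with M-MDSC markers.

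In the healthy dogs with enough gated cells, TNF was 23.0 CPM in dog 1, 18.4 CPM in dog 2, 17.8 CPM in dog 7 and 0 in dog 3, where 0 of 147809 UMIs allows up to 20.3 CPM. In the osteosarcoma dogs it was 131 CPM in dog 10, 110 CPM in dog 1, 44.2 CPM in dog 2, 17.9 CPM in dog 5, 14.0 CPM in dog 8, 6.31 CPM in dog 6 and 0 in dog 7, where 0 of 323822 UMIs allows up to 9.26 CPM. These limits cover counting error only. Osteosarcoma dogs 1, 2 and 10 were above all healthy dogs, and the other 4 lay within the healthy range.

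The means of TNF as log2(CPM + 1) were 3.27 ± 2.19 (SD, n = 4) in healthy and 4.34 ± 2.45 (SD, n = 7) in osteosarcoma dogs, a difference of 1.06 with a two-sided exact permutation p of 0.494, where the design allows 0.00303 at the smallest. Without healthy dog 3, the dog at 0, the difference turned to -0.030 (exact permutation p = 0.992), and without osteosarcoma dog 1, 7 or 10 it was 0.65, 1.78 or 0.61. The model on counts gave 1.59 ± 0.79 (adjusted p = 0.995, edgeR), and 0.64 ± 0.84 with age as a covariate. With 10 cells as the minimum the difference was 1.52 (exact permutation p = 0.242, 7 against 10 dogs). With the gate limited to monocyte-like clusters it was 0.97 (exact permutation p = 0.571, 4 against 6 dogs). Lower limits for S100A12 (3 UMIs) and IL18 (1 UMI) took in 7 healthy and 8 osteosarcoma dogs and gave a difference of 2.54 (exact permutation p = 0.0339). In edgeR TNF was not called with that wider gate (adjusted p = 0.877). The other monocyte-like cells, outside the gate, differed by 1.72 (exact permutation p = 0.104, 7 against 10 dogs).

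**Figure D4:**
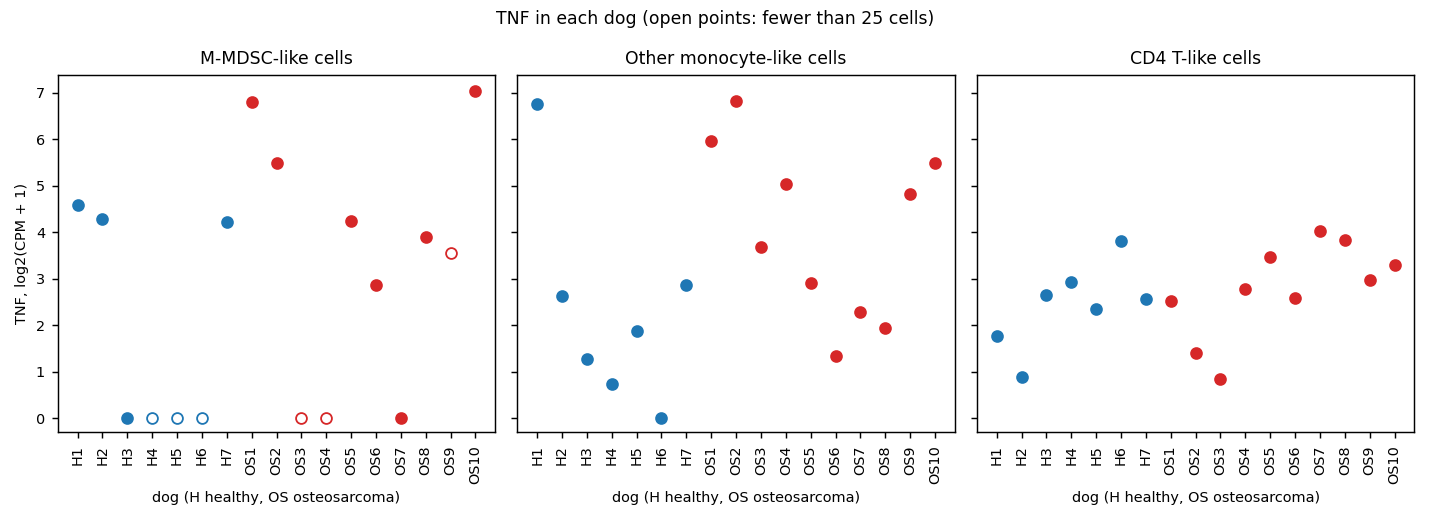
TNF as log2(CPM + 1) in each dog (x axis, H healthy in blue, OS osteosarcoma in red) in M-MDSC-like cells, other monocyte-like cells and CD4 T-like cells, with open points for dogs with fewer than 25 cells. Osteosarcoma dogs 1, 2 and 10 stand above the healthy dogs in the gate, and healthy dog 1 stands with the highest osteosarcoma dogs among the other monocyte-like cells.

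Of the remaining ligands in the gate, LTB had 6.31 to 161 CPM in osteosarcoma and 0 to 20.8 CPM in healthy dogs (1.15 ± 0.77, adjusted p = 0.995, edgeR), TNFSF10 304 to 552 and 298 to 578 CPM (0.07 ± 0.22), and TNFSF13B 61.9 to 142 and 67.5 to 149 CPM (-0.04 ± 0.29). TNFSF8 was 63.1 to 119 CPM in osteosarcoma and 61.5 to 162 CPM in healthy dogs (-0.09 ± 0.25). FASLG, CD40LG and TNFSF14 had too few UMIs there to be tested.

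Against the other monocyte-like cells of the same 11 dogs, M-MDSC-like cells were higher in 2 ligands and lower in none, where 17.3% of 13812 genes were called, 6.07% higher and 11.3% lower. Those other cells included cells of the cluster closest to the M-MDSC list, so the comparison is of the gate with cells outside it. LTB had a median of 15.1 CPM (0 to 161) in the gate and 6.22 CPM (3.75 to 28.7) outside it (log2 fold change 1.17 ± 0.34, adjusted p = 0.00603 by edgeR, higher in 8 of 11 dogs). Within the gate, LTB was 9.05 CPM in the cells of monocyte-like clusters and 149 CPM in those of all other clusters, most of them neutrophil-like. With the gate limited to monocyte-like clusters the LTB difference had the other sign and was not called (-0.47 ± 0.37, adjusted p = 0.381). TNFSF14 was called on 9 UMIs in the gate against 21 outside it (3.41 ± 0.60, higher in 5 of 11 dogs). Within the gate it was 1.51 CPM in monocyte-like clusters (6 UMIs) and 9.34 CPM in all other clusters (3 UMIs). Neither LTB nor TNFSF14 was called in the healthy dogs alone. TNFSF13B (0.37 ± 0.12, higher in 10 of 11 dogs) and TNFSF8 (0.49 ± 0.13, higher in 9 of 11) stayed outside the call limits, and TNF did too (0.15 ± 0.29).

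Since TNF is induced through NF-kB, its level in monocyte-like cells was set beside NFKBIA and TNFAIP3, feedback inhibitors of NF-kB, and IL1B, an inflammatory cytokine, over the 17 dogs. Dogs with more TNF had more of each. For NFKBIA, Pearson's r was 0.918 and Spearman's rho 0.961, for TNFAIP3 0.881 and 0.895, and for IL1B 0.894 and 0.934. Each permutation p was 1e-05, the smallest that the resamples can give, also after adjustment over the 3 relations. Without the 2 dogs farthest from the median of TNF, r was 0.886, 0.848 and 0.894. Within groups r was 0.918, 0.878 and 0.869 in the 7 healthy dogs and 0.913, 0.869 and 0.887 in the 10 osteosarcoma dogs. How many other genes follow TNF as closely in monocyte-like cells was not tested. The monocyte-like class joins several clusters in shares that vary between dogs, and 1 of them drew 26.25% of its cells from 1 dog. The part of these shares in r was not tested.

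**Figure D5:**
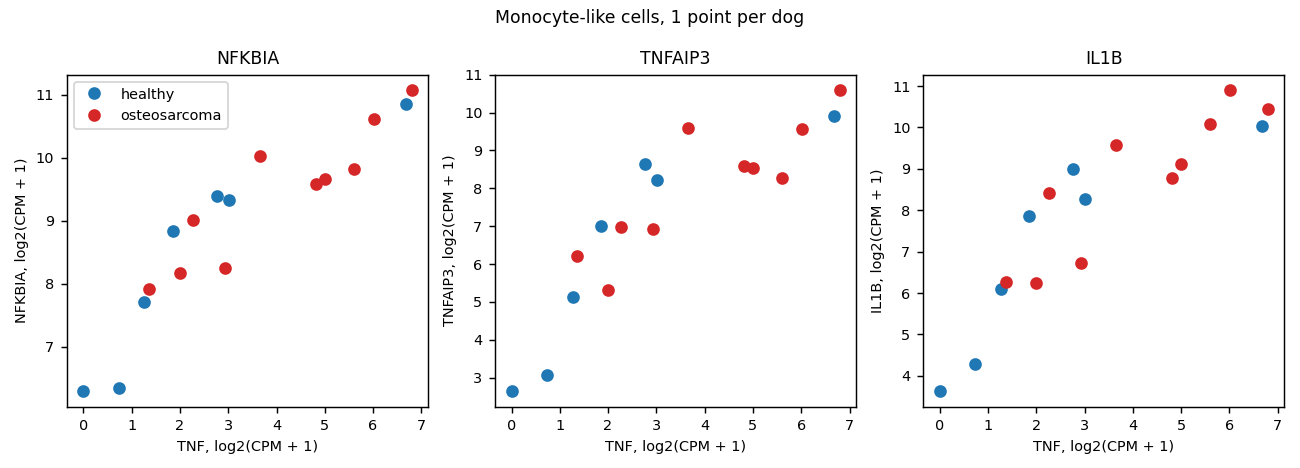
NFKBIA, TNFAIP3 and IL1B against TNF in monocyte-like cells, both axes as log2(CPM + 1), with 1 point per dog, blue for healthy and red for osteosarcoma. Points of both groups follow the same rising band, with r of 0.918, 0.881 and 0.894.

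Of 69 further genes of the pathway (other ligands, receptors, signalling genes, NF-kB and its targets), 66 were tested in all cells and none was called in any comparison of osteosarcoma with healthy dogs. In all cells the median log2 fold change of the 20 NF-kB genes and targets was 0.55 and that of all genes -0.0040, with 1 at an unadjusted p under 0.05. In monocyte-like cells it was 0.46 over 19 genes tested, and 0.0065 over all genes. Genes of the list are not independent over dogs, as NFKBIA, TNFAIP3 and IL1B each followed TNF. In the other classes the list's median was smaller, at 0.33 in NK-like, 0.23 in CD8 T-like, 0.18 in CD4 T-like, 0.14 in M-MDSC-like, 0.12 in neutrophil-like and 0.051 in B-like cells. At an unadjusted p under 0.05 edgeR gave 2 genes of the list each in CD4 T-like, NK-like and neutrophil-like cells. It gave 1 each in monocyte-like, CD8 T-like and M-MDSC-like cells and 0 in B-like cells. Of the 20 genes, 17 were called lower in T-like and NK-like than in myeloid cells (median log2 fold change -3.26). In all cells the list's shift cannot be told apart from a change in the share of myeloid cells. The pathway genes with the smallest unadjusted p in monocyte-like cells were TNFRSF8, the receptor of TNFSF8 (1.39 ± 0.39), the survival gene BCL2A1 (0.69 ± 0.20) and LTBR, the lymphotoxin receptor (0.46 ± 0.17), with adjusted p = 0.714 for each by edgeR. In CD4 T-like cells they were the death receptor TNFRSF25 (0.55 ± 0.21), NFKBIA (0.48 ± 0.19) and IER3, a stress response gene (0.69 ± 0.33), with adjusted p = 0.985 for each.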

How the data were processed

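Leukocytes of 17 dogs were profiled with a 10x Genomics 3′ kit. The deposited values are raw counts of UMIs per gene and barcode, made by the authors with Cell Ranger 7.0.0 on CanFam3.1, once with and once without intronic reads. The sources used here do not give which run was deposited. Counts from the transcript end can be low where the annotation misses that end.

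Cells outside 200 to 4500 genes or 500 to 20000 UMIs, or reaching 10% mitochondrial UMIs, were dropped, and the highest Scrublet scores (scanpy 1.11.5) were removed per dog at 0.8% per 1000 barcodes. Cells were clustered after correction across dogs (2000 variable genes, 30 components, Leiden resolution 1.0 and 1.5 within T and NK cells) without the ligands and pathway genes. Naming limits were set after the clusters were seen. Platelet-like and erythrocyte-like clusters were left out, and 76882 cells remained.

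Counts were summed per dog and class (dogs with at least 25 cells) and tested with edgeR 4.0.16 (TMM, quasi-likelihood, genes with at least 10 counts), with the dog as a block between classes. DESeq2 1.42.0 was an alternative, beside other filters, cell minimums, age, replicate blocks, marker gates, clustering without correction, doublets kept and libraries left out. The scripts were tested on simulated data. p-values for TNF in the gate came from exact permutation. Replicates are different dogs.

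The members, lists and tests were chosen with earlier results of these data known. Named were the 8 ligands, the 3 pathway genes with the smallest p in monocyte-like and CD4 T-like cells, the highest class of each receptor, and the 3 genes most alike per ligand. TNFRSF10B, TNFRSF21 and FADD were not analysed here. Sequences of the ligands were not analysed here.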

Additional observations from a re-analysis of the deposited data

Results flagged for a closer look

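In 17 of 110 groups of 4 to 10 dogs, the highest or lowest dog of a ligand lay apart from the others by Dixon's 95% limit. Chance gives about 1 in 20 for values without ties, but in 7 of these groups every other dog was at 0, so that 1 to 7 UMIs set a dog apart, and the count is not read against that rate. In all cells, LTB was 369 CPM in healthy dog 2 against 588 to 803 in the other healthy dogs, FASLG was 2.27 CPM in osteosarcoma dog 5 against 8.88 to 32.9 in the others of that group, and CD40LG was 31.6 CPM in healthy dog 1 against 22.1 to 25.7.

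Within lymphoid classes, CD40LG in effector or memory CD8 T-like cells was 21.1 CPM in osteosarcoma dog 5 (13 UMIs in 148 cells) against 3.79 to 8.81. CD4 in that class was 24.4 CPM in the same dog, within a range of 0.622 to 73.9 CPM and a median of 3.66 CPM over all dogs, and its part in the CD40LG level was not tested. LTB in B-like cells was 511 CPM in osteosarcoma dog 3 (69 cells) against 958 to 1705.

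In monocyte-like cells, LTB was 28.2 CPM in osteosarcoma dog 2 against 3.90 to 11.3, and TNFSF13B was 86.4 CPM in healthy dog 7 against 54.4 to 64.0. In neutrophil-like cells, TNFSF8 was 12.06 CPM in osteosarcoma dog 5 (3 UMIs) against 32.0 to 90.8, and TNF rested on 1 UMI each in healthy dog 5 (2.15 CPM) and osteosarcoma dog 1 (0.898 CPM), with 0 in the other dogs.

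In M-MDSC-like cells, TNF was 0 CPM in healthy dog 3 (28 cells) against 17.8 to 23.0 in the other healthy dogs, although a count of 0 there allows up to 20.3 CPM. In the same cells LTB was 161 CPM in osteosarcoma dog 8 (23 UMIs in 25 cells) against 6.31 to 26.5, and CD40LG was 20.8 CPM in healthy dog 7 (7 UMIs) against 0. The rest came from 1 or 2 UMIs against 0 in the other dogs of the group, namely FASLG in healthy dog 1 (1.44 CPM) and osteosarcoma dog 2 (5.89 CPM), CD40LG in osteosarcoma dog 5 (2.56 CPM) and TNFSF14 in healthy dog 1 (2.87 CPM).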

How the results depend on the processing

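No alternative run called a ligand between osteosarcoma and healthy dogs. Of 42 called differences between classes, 285 of 303 values under alternatives kept direction and call, 17 kept direction and lost the call, and LTB in M-MDSC-like cells reversed to -0.47 with the gate limited to monocyte-like clusters, a gate without the neutrophil-like cells. Of 785 values for 87 differences that were not called, 61 had the other sign and 4 gained a call, namely FASLG in monocyte-like against neutrophil-like cells with DESeq2 (-2.59, on 6 UMIs in neutrophil-like cells) and, without correction across dogs, TNFSF8 (-0.84) and TNFSF13B (0.71) in regulatory against memory CD4 T-like cells and CD40LG (1.64) in effector or memory CD8 T-like cells against the unnamed CD8A clusters. In NK-like against CD8 T-like cells the count of 2 called ligands became 1 with DESeq2, 0 with 10 cells as minimum, 1 in healthy dogs alone, 0 with marker gates and 1 to 2 on leaving out each dog. In regulatory against memory CD4 T-like cells the count of 1 became 0 in healthy dogs alone and 3 without correction across dogs. In M-MDSC-like against other monocyte-like cells the count of 2 became 1 with DESeq2, 1 with 10 cells as minimum, 0 in healthy dogs alone and 1 with the limited gate. Beyond fewer dogs or cells, the causes were not tested. TNF in the gate ran from 1.08 to 1.92 on leaving out each dog, lowest without osteosarcoma dog 10 and highest without healthy dog 1. As a difference of log2(CPM + 1) it ran from -0.030 without healthy dog 3 to 1.78 without osteosarcoma dog 7. Chosen after seeing the data were leaving out each dog in the NK-like comparisons and in the log2(CPM + 1) difference of TNF, healthy dog 1 in monocyte-like cells and healthy dog 7 between classes, adding the unnamed CD8A clusters to CD8 T-like cells, and the limited gate against other monocyte-like cells.

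Replicate numbers name different dogs, and correlations of same-numbered dogs ran from -0.452 to 0.452, with 1 of 7 dogs closest to its own number. With the number as a block, 0 ligands were called in each of 7 comparisons, and TNF in the gate was 1.11 ± 0.80. In NK-like cells that fit was not possible. Low UMI totals in NK-like, regulatory CD4 T-like and gated cells limit what could be detected.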

Other observations

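TNF was followed over dogs in several classes after its spread in monocyte-like cells had been seen, over 6 pairs of classes with p adjusted over them. In lymphoid classes TNF rose and fell together between dogs: r of log2(CPM + 1) over 17 dogs was 0.934 (rho 0.850) between CD4 T-like and effector or memory CD8 T-like cells, 0.848 (rho 0.870) between CD4 T-like and B-like cells, and 0.794 (rho 0.750) between effector or memory CD8 T-like and B-like cells, with adjusted permutation p for r of 6e-05, 0.00021 and 0.00038. Without the 2 dogs farthest from the median r was 0.887, 0.869 and 0.767. The cells of a dog share a library. TNF in B-like cells rested on 107 UMIs over the 17 dogs, at 0 to 8.76 CPM.

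Monocyte-like cells did not follow the lymphoid classes. TNF there against CD4 T-like, effector or memory CD8 T-like and B-like cells gave r of -0.38, -0.47 and -0.53 (rho -0.38, -0.44 and -0.52), with adjusted permutation p for r of 0.129, 0.0676 and 0.0413. In the same order, r was -0.64, -0.56 and -0.96 in the 7 healthy dogs and -0.43, -0.52 and -0.43 in the 10 osteosarcoma dogs. No p is given within groups, and the values for B-like cells rest on the same 107 UMIs. Without the 2 dogs farthest from the median of TNF in monocyte-like cells, r was -0.35 (permutation p = 0.201), so the relation over all dogs did not pass the test without them.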
